A study of Homo sapiens with 6 samples.

Results

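The mitochondrial ribosomal proteins were examined in MDA-MB-231 cells in which SAM68 had been silenced. The members are the 76 of 74852 annotated loci that carry a gene symbol of the MRPL or MRPS series, that is MRPL or MRPS, a number and, in MRPS18, a letter. Of these loci, 50 encode proteins of the large subunit and 25 proteins of the small subunit. The remaining locus, MRPS36, bears the name for historical reasons and encodes KGD4, a component of the alpha-ketoglutarate dehydrogenase complex. By the current ribosome nomenclature MRPS30 (mL65) and MRPS18A (mL66) belong to the large subunit, despite their symbols.

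MDA-MB-231 is a human cell line of the triple-negative breast cancer (TNBC) subtype, which lacks estrogen and progesterone receptors. Cells received either control siRNAs (si-CTRL) or 4 pooled siRNAs that target SAM68 (si-SAM68), and polyadenylated RNA was sequenced from 3 libraries in each group. SAM68, the product of KHDRBS1, is an RNA-binding protein of the STAR family that regulates splicing. According to the sample labels both groups were transfected in 2 rounds and collected 24 h after the second, whereas the methods of the study give a later time. All libraries come from 1 cell line, and the methods describe the harvest as made in triplicate without saying whether the transfections were independent, so that the p-values measure the spread between these libraries, which may be technical.

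Mitochondria carry their own ribosome, which translates the few proteins encoded by the mitochondrial genome, all of them subunits of the respiratory chain and ATP synthase. Its RNA components are transcribed inside the organelle, whereas its proteins are encoded in the nucleus, made in the cytosol and imported. Some of these proteins descend from those of the bacterial ribosome (uL, bL, uS and bS in the nomenclature, with the suffix m), and others were acquired by mitochondria (mL and mS). Cells that respire need this ribosome, and its proteins are expressed in most tissues.

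The silenced gene matched the labels. KHDRBS1 had 15660, 14483 and 14737 normalized reads in the si-CTRL libraries and 583, 602 and 670 in the si-SAM68 libraries, which corresponds to 4.13% of the control level (log2 fold change -4.60, SE 0.083, limma with Benjamini-Hochberg adjustment, adjusted p = 2.13e-09). A two-sided exact permutation test gave p = 0.1, the smallest that 3 libraries against 3 allow. The libraries held 52625492 to 82568487 reads, of which 0.436% to 0.530% fell on the members. The mesenchymal marker VIM was at 138300 normalized reads or more in every library and CD44 at 43246 or more, while CDH1 stayed at or below 4.60, EPCAM at or below 9.20, ESR1 at or below 15.2 and PGR at 0. A pair of libraries stood apart from the others. In si-CTRL replicate 1 mitochondrial chromosome loci took 2.15% of the reads, against 0.952% to 1.06% elsewhere, and in si-SAM68 replicate 2 the ribosomal RNA locus took 15.1%, against 1.83% to 3.17% elsewhere. Values without these libraries are given beside some of the results that change without them.

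As a group, the mitochondrial ribosomal proteins moved little when SAM68 was silenced. A normalized read count is the number of reads on a locus divided by the size factor of its library, and fold changes were computed on log2(normalized read count + 1). In RNA of whole cultures, less RNA per cell and fewer cells that express a gene cannot be told apart. All 76 members passed the minimum mean of 10 normalized reads and were tested together with the other loci, 18849 in all. Only 2 members (2.63%) had a limma p-value under 0.05 after Benjamini-Hochberg adjustment, MRPL2, which fell, and the locus of MRPS6, which rose, whereas 10.7% of all loci tested were called by this rule (4.47% higher and 6.23% lower). None of the 76 passed the thresholds of the study, an unadjusted p-value of at most 0.05 with a fold change of at least 1.5, which 7.67% of all loci passed by the same limma fit (2.83% higher and 4.83% lower). Without adjustment, 17 members (22.4%) had a limma p-value under 0.05, 9 higher and 8 lower, against 27% of all loci.

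**Figure D1:**
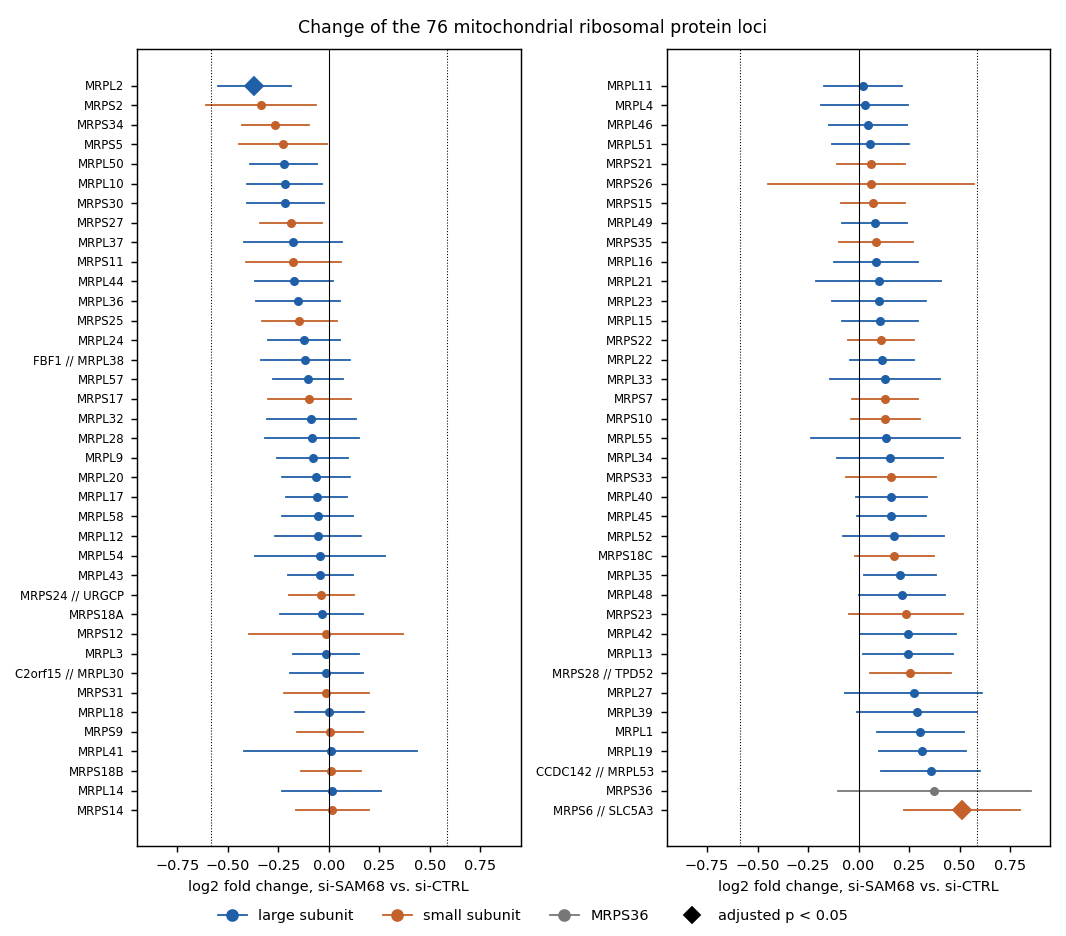
Log2 fold change of each of the 76 member loci in si-SAM68 vs. si-CTRL (x axis, with its 95% interval), ordered from the lowest to the highest over both panels and coloured by subunit. Dotted lines mark a fold change of 1.5, diamonds mark MRPL2 and the MRPS6 locus, with an adjusted p-value under 0.05, and the other members have intervals that mostly cross 0.

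The median log2 fold change of the members was 0.02, beside 0.005 for all loci tested, with 44 members above 0 and 32 below. Members lay between -0.37 and 0.51. The median standard error of a member was 0.089, smaller than the 0.128 of all loci, and members were also more abundant, with a median of 3444 normalized reads beside 610.1. Thus for 70 of the 76 members the whole 95% interval lay inside a fold change of 1.5 in either direction, while for 59 it included 0. Of all 18849 loci tested, 10598 had an interval inside that range, and for 13763 the interval included 0. The members with intervals that reach past 1.5-fold, on 1 side, were MRPS2, MRPL27, MRPL39, MRPL53, MRPS36 and MRPS6.

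The groups of libraries did not overlap for 27 members (35.5%), 16 of which were higher and 11 lower in si-SAM68. The same held for 33.9% of all loci tested, 16.6% higher and 17.3% lower, so that the share among the members was near the background.

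The subunits had nearly equal medians. The median log2 fold change was 0.018 over the 50 loci of the large subunit, with 28 above 0, and 0.017 over the 25 of the small subunit, with 15 above 0. By origin, the 44 proteins that descend from the bacterial ribosome had a median of 0.020 and the 31 acquired by mitochondria one of 0.012. Both called members are of bacterial origin.

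MRPL2 encodes uL2m, which in every ribosome lies close to the peptidyl transferase centre of the large subunit. Its normalized read counts were 1965, 1817 and 1940 in si-CTRL and 1546, 1464 and 1421 in si-SAM68. All 3 silenced libraries were thus below all 3 controls. The means were 1907 ± 79.2 and 1477 ± 63.8 (SD, n = 3 each), a log2 fold change of -0.37 (SE 0.081, 95% interval -0.55 to -0.19), and the limma adjusted p-value was 0.0206. The locus (GSHG0026625, hg19 chr6:43021767-43027283) overlaps that of KLC4, a kinesin light chain, in coordinates. KLC4 was at 1212 normalized reads in si-CTRL and 1236 in si-SAM68 (log2 fold change 0.02, limma adjusted p = 0.915). Leaving out si-CTRL replicate 3, si-SAM68 replicate 2 or si-SAM68 replicate 3 took the adjusted p-value of MRPL2 past 0.05, with log2 fold changes of -0.36, -0.36 and -0.34.

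The MRPS6 locus (GSHG0019440, hg19 chr21:35445823-35515334) encodes bS6m of the small subunit, and the annotation joins it with SLC5A3, which encodes a myo-inositol transporter. Reads of the pair cannot be told apart in these counts. The locus had 18791, 25354 and 25351 normalized reads in si-CTRL and 28685, 34968 and 34938 in si-SAM68. The groups did not overlap, and within each group replicate 1 was the lowest. The log2 fold change was 0.51 (SE 0.128, 95% interval 0.23 to 0.80, limma adjusted p = 0.0329). It was 0.37 (adjusted p = 0.0154) without si-CTRL replicate 1, and the call was lost without si-SAM68 replicate 2 or without si-SAM68 replicate 3.

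MRPS34 came nearest to the threshold without passing it. It encodes mS34, a mitochondria-specific protein of the small subunit, and had 6762, 6070 and 6522 normalized reads in si-CTRL against 5571, 5277 and 5255 in si-SAM68. The groups did not overlap, with a log2 fold change of -0.26 (SE 0.075, limma adjusted p = 0.0511). Leaving out si-CTRL replicate 1 brought it past the threshold, at -0.23. Other settings did so too, and MRPS34 stayed uncalled in 15 of the 19 alternative settings described below.

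Other members with small p-values on the lower side did not pass the test. MRPL50, which encodes mL50 of the large subunit, had 3561, 3351 and 3499 normalized reads in si-CTRL and 2963, 2859 and 3092 in si-SAM68, a log2 fold change of -0.22 (limma adjusted p = 0.0856). MRPS2, which encodes uS2m, had 1570, 1188 and 1549 reads in si-CTRL and 1136, 1031 and 1223 in si-SAM68, a log2 fold change of -0.34 (limma adjusted p = 0.111). In MRPS2 the lowest control, si-CTRL replicate 2, lay below the highest silenced library, so that the groups overlapped. With a library left out the log2 fold change of MRPS2 ran from -0.47 to -0.27. MRPS2 stayed uncalled in 17 of the 19 alternative settings.

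On the higher side, MRPL19, which encodes bL19m at the interface between the subunits, had 1809, 2177 and 2181 normalized reads in si-CTRL and 2469, 2464 and 2726 in si-SAM68. Its log2 fold change was 0.32 (limma adjusted p = 0.0655). The MRPL53 locus, which the annotation joins with CCDC142, had the fewest reads of all members, with 396, 433 and 392 normalized reads in si-CTRL and 577, 498 and 492 in si-SAM68. Its log2 fold change was 0.36 (limma adjusted p = 0.0671), and the gap between the groups, from 433 to 492, was smaller than the range within si-SAM68. MRPL1, which encodes uL1m of the mobile stalk at the exit side of the ribosome, had 1326, 1448 and 1586 reads in si-CTRL and 1721, 1724 and 1939 in si-SAM68, a log2 fold change of 0.31 (limma adjusted p = 0.0716). In all of these the silenced libraries lay above the controls without overlap, yet none passed the adjusted threshold in the main fit. MRPL53 stayed uncalled in 17 of the 19 alternative settings, and MRPL19 and MRPL1 in 18 each.

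**Figure D2:**
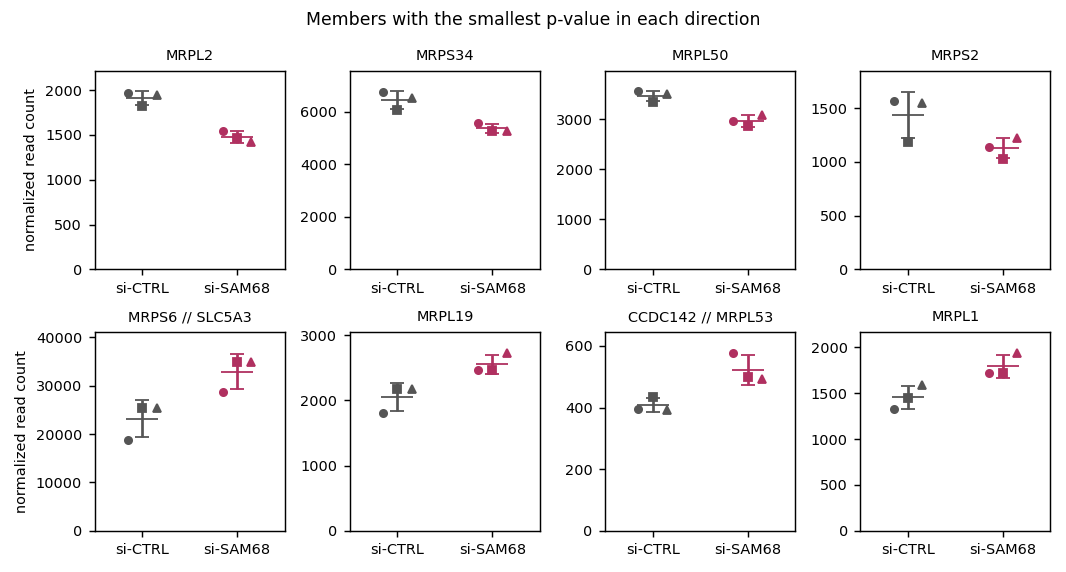
Normalized read count (y axis, from 0) in the 3 si-CTRL and 3 si-SAM68 libraries for the 4 members with the smallest p-value in each direction, lower ones in the upper row. Circles, squares and triangles are replicates 1, 2 and 3, and bars show the mean ± SD; the groups are apart in each of them but MRPS2.

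The stalk that recruits translation factors to the large subunit is formed by uL10m and bL12m. MRPL10 (uL10m) had 6342, 5502 and 5644 normalized reads in si-CTRL and 5318, 4791 and 4898 in si-SAM68, a log2 fold change of -0.22 that did not pass the test (limma adjusted p = 0.125). MRPL12 (bL12m) had a log2 fold change of -0.05, with a 95% interval from -0.27 to 0.16 (limma adjusted p = 0.756). The stalk proteins thus gave no call.

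The 3 MRPS18 paralogs occupy different places in the ribosome, MRPS18C as the bS18m of the small subunit, MRPS18B as mS40 and MRPS18A as mL66 of the large subunit. Their log2 fold changes were 0.18 for MRPS18C, 0.01 for MRPS18B and -0.04 for MRPS18A, with limma adjusted p-values of 0.227, 0.933 and 0.843. MRPS18B had the narrowest range over the 6 libraries of all members on the log2 scale, from 8351 to 8700 normalized reads. MRPS30 (mL65) had a log2 fold change of -0.22 (limma adjusted p = 0.140), with the groups not overlapping.

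MRPS36, the member outside the ribosome, had 1951, 3716 and 3758 normalized reads in si-CTRL and 3809, 3703 and 4216 in si-SAM68. Its log2 fold change of 0.38 did not pass the test (limma adjusted p = 0.291), and only si-CTRL replicate 1 was low. Without that library the log2 fold change was 0.06.

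MRPL18 and MRPL38 are among the genes for which the study lists a splicing event. The total read count of MRPL18 (uL18m) had a log2 fold change of 0.00, with a 95% interval from -0.17 to 0.17, and that of the locus joining FBF1 and MRPL38 (mL38) one of -0.12, with an interval from -0.34 to 0.10. The table counts reads per locus and does not resolve isoforms.

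Libraries of the same condition also differed from each other in the members. The median deviation of the members from the mean of the 6 libraries, on the log2 scale, was lowest in si-CTRL replicate 1, at -0.082, and in si-SAM68 replicate 2, at -0.050, while the other 4 libraries lay between -0.006 and 0.055. Thus the libraries low in members were 1 of each group, and they were those that stood apart in mitochondrial or ribosomal RNA. Of the 76 members, 37 had their lowest value in si-CTRL replicate 1, where 28.3% of all loci had theirs, and 20 in si-SAM68 replicate 2, where 12.5% of all loci had theirs. The highest value lay in si-CTRL replicate 1 for 17 members and in si-SAM68 replicate 2 for 1, beside 27.5% and 12.6% of all loci. The part of RNA quality or ribosomal RNA content in these values was not tested.

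**Figure D3:**
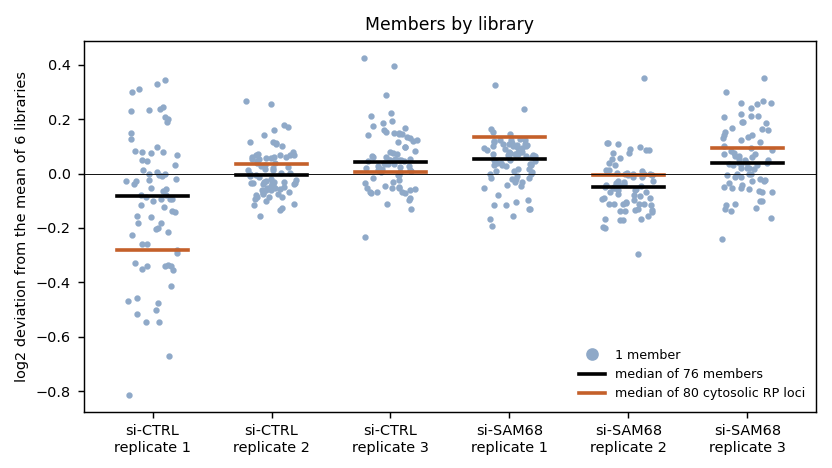
Log2 deviation of each member from its mean over the 6 libraries (y axis) in each library (x axis), 1 point per member, with the median of the members in black and that of 80 cytosolic ribosomal protein loci in orange. Both medians are lowest in si-CTRL replicate 1, at -0.082 and -0.281, and its points are the most spread.

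In si-CTRL replicate 1 some members were far below the other controls, and those named here were chosen after their values were seen. MRPS26 had 927 normalized reads there against 1669 and 1941 in the other controls, which is -0.96 on the log2 scale. MRPL41 had 1147 against 1735 and 2206, and MRPS12 had 1521 against 2536 and 2458. In si-SAM68 these 3 members lay between 1314 and 1639, between 1590 and 1688, and between 2034 and 2215, so that each was above the low control and below the others. With all 6 libraries their log2 fold changes were 0.06, 0.01 and -0.01. Without si-CTRL replicate 1 they were -0.26, -0.25 and -0.25, and MRPS12, the uS12m of the decoding site, then passed the test (limma adjusted p = 0.0371).

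The difference of that library from the other controls was also summarised by transcript length. Over the 35 single-gene members with a transcript of at most 1532 bases, the median difference of si-CTRL replicate 1 from the other controls was -0.19 on the log2 scale, and over the 35 longer ones -0.02, with 25 and 21 members below 0. Across these 70 members the difference had a Pearson r of 0.13 and a Spearman rho of 0.20 with log2 transcript length, a weak relation. The cytosolic ribosomal proteins were lower still there, with a median difference from the other controls of -0.302. That of the nuclear respiratory chain genes was -0.275, and that of all 76 members -0.095. Leaving out si-CTRL replicate 1 moved the median log2 fold change of the members to -0.003 and the calls to 5 (6.58%, beside 15.1% of all loci at that setting), of which MRPL2, MRPS34, MRPS12 and MRPL36 were lower and the MRPS6 locus higher. Without si-CTRL replicate 2 there were 3 calls, 1 higher and 2 lower (3.95%, beside 8.45% of all loci). Leaving out si-SAM68 replicate 2 moved the median to 0.059. No call was left without that library or without si-SAM68 replicate 3, and 1 call, the MRPS6 locus, without si-CTRL replicate 3. Of all loci 4.29%, 3.32% and 5.85% were then called. Without both, the median was 0.023, with 1 call in each direction.

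The change of a member varied with the base composition of its transcript. Over the 70 members at loci with a single gene, the log2 fold change had a Pearson r of -0.38 and a Spearman rho of -0.39 with the GC content of the longest coding transcript, beside -0.19 and -0.26 over 12031 genes tested. These are correlations across genes, which share the same 6 libraries and are not independent replicates, and no test was run. The 35 members with a GC content of 34.96% to 48.95% had a median log2 fold change of 0.11, with 24 above 0, and the 35 with 50.33% to 71.95% one of -0.01, with 17 above 0. Leaving out a library gave values of r between -0.27 and -0.52, the former without si-CTRL replicate 3 and the latter without si-CTRL replicate 1. The part of base composition in the change of single members was not tested.

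**Figure D4:**
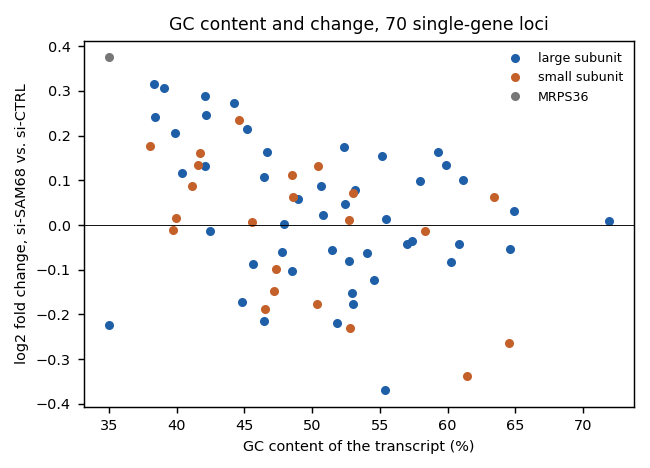
Log2 fold change in si-SAM68 vs. si-CTRL (y axis) against the GC content of the longest coding transcript in percent (x axis) for the 70 members at loci with a single gene, coloured by subunit. Members of low GC content lie higher on average, with r = -0.38 and a wide scatter.

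Most proteins of a ribosome are present in a single copy, but the transcripts of the members were not equally abundant. The normalized read count per kilobase of the longest coding transcript was compared over the 70 single-gene members, with a median of 2280 per kb and a range of 26.9-fold. MRPL33 (bL33m) led with 8990 ± 1490 per kb in si-CTRL and 9777 ± 829 in si-SAM68 (SD, n = 3 each), followed by MRPL51 (mL51) with 8348 ± 754 and 8681 ± 422. MRPL37 (mL37) was at 6445 ± 1030 and 5659 ± 304, MRPL11 (uL11m, at the base of the stalk) at 5966 ± 606 and 6043 ± 271, and MRPS15 (uS15m) at 5675 ± 48.4 and 5969 ± 263. At the low end were MRPS33 (mS33) with 329.8 ± 28.0 per kb in si-CTRL, MRPL48 (mL48) with 468.9 ± 16.0 and MRPL55 (bL31m) with 518.5 ± 124. These 8 members gave no call between the groups.

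Neighbours in this order mostly did not differ beyond the spread of their libraries: in 68 of 69 neighbouring pairs the ranges over the 6 libraries overlapped. The median level was 2830 per kb of transcript over the large subunit and 1630 over the small subunit, but 5485 and 5066 per kb of coding sequence, so that most of this gap depends on the length chosen. The order depends on it too. Per kilobase of the longest coding sequence MRPL51 ranked 1 and MRPL33 ranked 2, but MRPL37 fell from rank 3 to 31. MRPS33, the lowest per kb of transcript, rose from rank 70 to 43. MRPL42, with an annotated transcript of 15582 bases, rose from rank 65 to 4. The MRPL51 locus also overlaps that of GAPDH, one of the most abundant transcripts, so that its level is uncertain where reads of both can be counted on it.

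Genes of the respiratory machinery and its ribosome are often held to share promoter elements bound by NRF1, by ETS factors such as GABPA and by YY1. In the RefSeq promoter table (GRCh38.p14, 250 bases before to 50 after the start), 67 of the 76 members had an entry. The ETS letters CCGGAAG, searched on both strands, were found in 27 of the 67 (40.3%), beside 17.9% of the 11113 promoters of tested genes and 10.7% of all 27305. The YY1 letters AAGATGGC were found in 19 (28.4%), beside 4.99% and 3.03%. The NRF1 motif was found in 8 (11.9%), beside 11% and 6.29%. At least 1 of the 3 was present in 43 members (64.2%), beside 29.7% and 17.9%.

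The promoters of MRPS34, MRPL50 and MRPL53 show these matches in members described above, and were picked after their values were seen. Matches are in capitals, on either strand, and the sequence is given in the direction of transcription. MRPS34 (GRCh38 chr16:1773085-1773384, minus strand) has ETS matches that begin at -71, -29 and -19 from the start site, MRPL50 (chr9:101398569-101398868, minus strand) a YY1 match that begins 23 bases after it, and MRPL53 (chr2:74472631-74472930, minus strand) ETS matches that begin at -72 and 0.
MRPS34: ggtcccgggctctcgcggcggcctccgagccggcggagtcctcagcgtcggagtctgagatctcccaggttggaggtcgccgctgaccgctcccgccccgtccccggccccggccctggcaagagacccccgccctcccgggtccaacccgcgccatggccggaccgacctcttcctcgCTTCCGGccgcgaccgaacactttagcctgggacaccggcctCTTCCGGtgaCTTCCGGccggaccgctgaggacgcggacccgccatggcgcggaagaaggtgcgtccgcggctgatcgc
MRPL50: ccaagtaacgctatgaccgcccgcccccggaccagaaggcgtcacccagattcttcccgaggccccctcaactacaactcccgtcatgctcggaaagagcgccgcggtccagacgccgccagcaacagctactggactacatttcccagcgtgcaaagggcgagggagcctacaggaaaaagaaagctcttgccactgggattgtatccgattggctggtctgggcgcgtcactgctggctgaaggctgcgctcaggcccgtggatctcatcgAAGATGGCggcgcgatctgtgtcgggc
MRPL53: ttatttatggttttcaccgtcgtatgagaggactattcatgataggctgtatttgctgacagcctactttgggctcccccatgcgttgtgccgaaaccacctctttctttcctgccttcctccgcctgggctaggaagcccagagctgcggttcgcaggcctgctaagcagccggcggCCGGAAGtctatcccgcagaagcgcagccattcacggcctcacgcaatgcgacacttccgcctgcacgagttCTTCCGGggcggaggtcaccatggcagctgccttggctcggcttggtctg
MRPS34 and MRPL53 both hold ETS letters, while the log2 fold change was -0.26 in MRPS34 and 0.36 in MRPL53. Over the members, the median log2 fold change was 0.06 with and 0.01 without an ETS match, and -0.01 with and 0.02 without a YY1 match. The promoters of MRPS6, MRPS2, MRPL19 and MRPL1 held none of the 3 motifs. MRPL2 and MRPL10 had no promoter entry and were not searched. A match is a description of the letters and not of binding, and the lack of one says only that these letters are not in this window.

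siRNAs can lower transcripts other than their target through base pairing of the seed, positions 2 to 8 of the guide strand. The SAM68 pool is shown because every si-SAM68 library received it. The sense strands are given with the bases that pair with the seed in capitals, which are also the letters a matching transcript would hold.
siSAM68_1: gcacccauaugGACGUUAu
siSAM68_2: gaaagagcgagUGCUGAUa
siSAM68_3: uaugauggaugAUAUCUGu
siSAM68_4: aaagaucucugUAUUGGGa
In the 3' untranslated region of the longest coding transcript, siSAM68_1 had a match in 0 members, siSAM68_2 in 6, siSAM68_3 in 6 and siSAM68_4 in 7. MRPL19, MRPL42 and MRPS23 held matches of siSAM68_2, siSAM68_3 and siSAM68_4. In all, 12 of the 76 members held at least 1 match, with a median log2 fold change of 0.14, and the other 64 had a median of 0.016. The share of such matches over all genes is not given here. The part of seed pairing, transcript length or base composition in this difference was not tested. MRPL2 and MRPS34 held none, while MRPL50 held a match of siSAM68_2.

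The other genes of mitochondrial translation gave calls in both directions. Each call was lost in some of the settings with a library left out, while its log2 fold change kept its sign. The share of all loci called also fell there, to 4.9%, 4.29% and 3.32% without si-SAM68 replicate 1, 2 or 3. In each list the count of calls is over the loci tested, and the share called among all loci is that given above. Of 5 mitoribosomal proteins with other symbols (DAP3, PTCD3, AURKAIP1, CHCHD1 and GADD45GIP1) none was called, and their median log2 fold change was 0.036. Among 30 factors of mitoribosome assembly 23 were below 0, with a median of -0.049, and 1 was called. Without si-CTRL replicate 3, 18 were below 0 and the median was -0.032. The called factor was MTG1, a GTPase of large subunit assembly. It had 2101, 1924 and 2005 normalized reads in si-CTRL and 1582, 1411 and 1339 in si-SAM68 (log2 fold change -0.48, limma adjusted p = 0.0111). Its limma adjusted p-value was 0.0547 with si-SAM68 replicate 2 left out and 0.0632 with si-SAM68 replicate 3 left out.

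Of 20 translation factors 1 was called. GFM2, which separates the subunits after termination, had 12703, 12059 and 12517 normalized reads in si-CTRL and 10009, 9927 and 10106 in si-SAM68 (log2 fold change -0.31, limma adjusted p = 0.0185). It passed the test without si-CTRL replicate 1 or 2, but not when any other library was removed (limma adjusted p from 0.0605 to 0.0973). Of 19 tRNA synthetases and related enzymes 3 were called (15.8%, beside 10.7% of all loci), and 1 of these is not reported here. PARS2 rose (log2 fold change 0.44, limma adjusted p = 0.0276) and EARS2 fell (log2 fold change -0.42, limma adjusted p = 0.0176). These charge mitochondrial tRNAs with proline and glutamate. Removing si-SAM68 replicate 2 gave limma adjusted p-values of 0.0826 for PARS2 and 0.0600 for EARS2, and removing si-SAM68 replicate 3 gave 0.107 and 0.0834. PARS2 was also not called without si-CTRL replicate 2 or without si-SAM68 replicate 1 (limma adjusted p = 0.0795 and 0.0895), and EARS2 lay just past the threshold, uncalled, without si-CTRL replicate 2.

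Of 18 genes of mitochondrial RNA synthesis and processing 1 was called in each direction, 11.1% of the list beside 10.7% of all loci. TFAM, which packages mitochondrial DNA and starts its transcription, had 11364, 14952 and 14672 normalized reads in si-CTRL and 17733, 18515 and 21454 in si-SAM68 (log2 fold change 0.50, limma adjusted p = 0.0255). GRSF1, an RNA-binding protein of mitochondrial RNA granules, had 4749, 5518 and 5915 against 3713, 3777 and 4016 (log2 fold change -0.49, limma adjusted p = 0.0115). In both, the groups did not overlap. Without si-SAM68 replicate 2 the limma adjusted p-values were 0.0688 for TFAM and 0.0527 for GRSF1, and without si-SAM68 replicate 1 they were 0.0585 and 0.0533. TFAM was not called without si-SAM68 replicate 3 either (limma adjusted p = 0.122). Without si-CTRL replicate 1, its lowest control, the log2 fold change of TFAM was 0.37 (limma adjusted p = 0.0103).

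The 80 cytosolic ribosomal protein loci had a median log2 fold change of 0.148 and the 77 nuclear respiratory chain loci one of 0.136, higher than the 0.02 of the mitochondrial ribosomal proteins. Without si-CTRL replicate 1 the medians were 0.060, 0.008 and -0.003. No cytosolic ribosomal protein was called, and 13 (16.2%) had an unadjusted limma p-value under 0.05, a smaller share than the 27% of all loci. This number ran from 3 without si-SAM68 replicate 3 to 31 without si-CTRL replicate 2. In the respiratory chain SDHA of complex II (log2 fold change -0.43), NDUFS5 of complex I (-0.38) and UQCRC2 of complex III (-0.26) fell, with limma adjusted p-values of 0.00797, 0.0178 and 0.0375. With the replicate number as a block UQCRC2 was not called (limma adjusted p = 0.0610), and it was also lost without si-SAM68 replicate 1. Only SDHA was called when si-CTRL replicate 2, si-CTRL replicate 3 or si-SAM68 replicate 2 was left out (limma adjusted p from 0.0148 to 0.0444). Without si-SAM68 replicate 3 limma called none of the 77, of which 3 had an unadjusted p-value under 0.05.

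**Figure D5:**
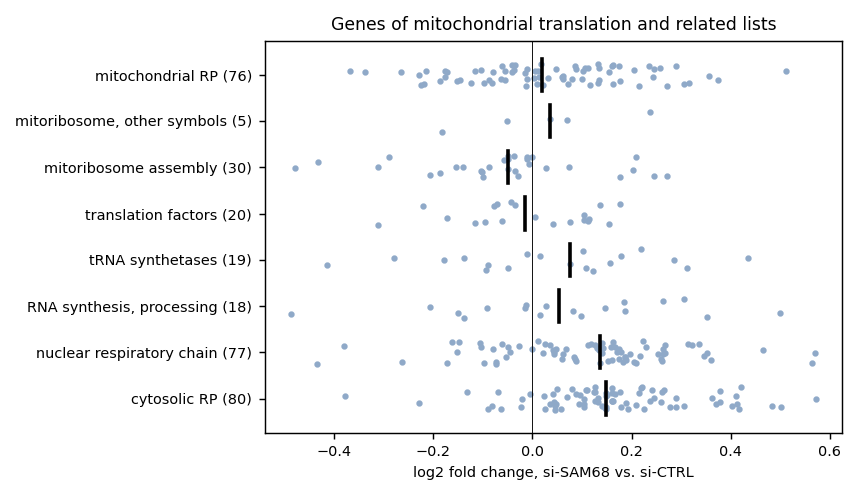
Log2 fold change in si-SAM68 vs. si-CTRL (x axis) of the 76 member loci and of 7 lists of related genes (y axis, with the number of loci tested), 1 point per locus and a black bar at the median. The medians lie between -0.049 for mitoribosome assembly and 0.148 for cytosolic ribosomal proteins, and points of every list lie on both sides of 0.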

How the data were processed

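RNA-Seq was available for 3 si-CTRL and 3 si-SAM68 libraries, all assigned from their labels. The authors deposited 1 table, a signal given as the reads on each FAST DB locus (hg19) divided by the DESeq2 size factor of the library. The submitters' processing notes name STAR 2.4.0, Picard, SAMtools, FastQC and DESeq2. The labels name a stranded kit, while the counting program and its use of strand are not given in the sources used here, so that overlapping loci (30 of the 76 members overlap another tested locus) and the 6 members joined with other genes may hold reads of their neighbours. Dividing by the step of each library gave whole reads for 100% of the values, at least 317 for every member and library. Precision is limited by 3 libraries per group.

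limma 3.58.1 in R 4.3.3 (lmFit, eBayes with trend) was applied to log2(normalized read count + 1) of the 18849 loci whose mean reached 10, with Benjamini-Hochberg adjustment over all of them. The members were the loci of the MRPL and MRPS symbols. The members and lists were chosen with earlier results of these data known. The genes named are KHDRBS1, the called members and those with the smallest p-values up to 4 in each direction, the 5 highest and 3 lowest levels per kb, the MRPS18 paralogs, the stalk proteins, MRPS30, MRPS36, MRPL18 and MRPL38, and called genes of the other lists, of which 1 is not reported here. Others are marked as chosen later or listed as members that meet a stated count. Lists are described by counts and medians, without a set test. Symbols of the mitochondrial genome matched no locus. Transcript lengths, GC content and 3' untranslated regions came from GENCODE v29 (GRCh38), used for sequence only.

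Deviations of libraries with the same replicate number correlated weakly, at 0.105, 0.231 and 0.125, and those of different number at -0.125 to 0.007. The numbers may thus pair the libraries. The main fit did not use this pairing, and the replicate block was run only as an alternative. Alternatives were other scalings, pseudocounts, minimum means and eBayes settings, the replicate block, each library left out, and edgeR 4.0.16 and DESeq2 1.42.0 on recovered reads. Removing both libraries that stood apart, edgeR with the block and coding length were added after seeing the data. On counts simulated from the mean levels of these loci (18849 loci, 200 changed), limma recovered 182 with 9 false calls, edgeR 184 with 10 and DESeq2 182 with 9. The simulation used the same dispersion at every locus, no library that stood apart and changes of about 1.5-fold or more. No member changed by 1.5-fold, so that these numbers do not measure the power to detect the changes of the members.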

Additional observations from a re-analysis of the deposited data

How the results depend on the processing

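The number of members with an adjusted p-value under 0.05, 2 in the report, was 4 with quantile normalization, 1 with no minimum mean, 0 with eBayes without a trend and 7 with DESeq2 on recovered reads (4 higher and 3 lower, adjusted p-values missing for 2209 loci), and between 0 and 5 when a library was left out. The share of all loci called moved as well, to 10.8%, 4.5%, 4.77% and 14.8% under these 4 settings, and to between 3.32% and 15.1% with a library left out, each time above the share of the members. It was 2 with edgeR on recovered reads and 2 with the replicate block, which changed no call of a member. Where it was 0, the members with an unadjusted limma p-value under 0.05 numbered 10 with eBayes without a trend, 10 when si-SAM68 replicate 2 was removed and 11 when si-SAM68 replicate 3 was. The count past the thresholds of the study was between 0 and 1 when a library was left out. The count of 1 arose without si-SAM68 replicate 1 and was the MRPS6 locus. The median log2 fold change of the small subunit lay between 0.0041 and 0.078 with a library left out, and that of the large subunit between -0.023 and 0.085. The log2 fold change of MRPL2 was negative in every alternative (adjusted p 0.00187 to 0.0954), and that of the MRPS6 locus positive (0.00151 to 0.146). No called value changed sign. The cause of these shifts was not tested. With 3 libraries per group, the intervals given show how large a change remains compatible with these values, and not how small a change could be seen.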
